A study of Rattus norvegicus with 2 samples.

Results

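Expression of 8 genes that hold back or accompany calcification of the vessel wall was examined in single cells of normal and balloon-injured rat carotid arteries: Mgp, Enpp1, Bmp2, Bmp4, Sox9, Runx2, Alpl and Acan. The genes were chosen by symbol, and all 8 were among the 32623 genes listed. Arterial calcification is an active process in which cells of the wall take up programs of bone and cartilage. Mgp (matrix Gla protein) is a secreted inhibitor that binds mineral and bone morphogenetic proteins, and Enpp1 makes pyrophosphate, which blocks crystal growth. Bmp2 and Bmp4 are secreted ligands that can induce bone, Sox9 and Runx2 are the leading transcription factors of cartilage and bone, Alpl is the tissue-nonspecific alkaline phosphatase that breaks down pyrophosphate, and Acan encodes aggrecan, a proteoglycan of cartilage.

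The arteries came from male SD rats, given as 12 weeks old in the labels and 8 weeks old at the start of the experiment in the text. The control library (treatment: none) held the left carotid arteries of 2 rats, and the case library (balloon injury of the carotid artery) held the right arteries of the same 2 rats, 28 days after the injury. Arteries were pooled before loading, so each group was 1 library and the spread between animals could not be measured. The intervals given here are 95% intervals that cover counting error only, no p-value was computed, and differences between libraries cannot be told apart from differences between conditions.

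The unit of measurement was the UMI, a molecule tag that counts captured transcripts, and levels are given as CPM (a gene's sum scaled to 1000000 UMIs within its class and library). Of 3321 control and 5656 case barcodes, 2244 and 4947 were kept, with median depths of 10906.5 and 5174 UMIs, so the control cells were deeper. Cells were assigned to classes by the summed level of marker genes in each cell. VSMC-gated cells (vascular smooth muscle) numbered 1167 in the control and 2613 in the case library, fibroblast-gated cells 737 and 1506, endothelial-gated cells 56 and 259, macrophage-gated cells 50 and 121, and Schwann-gated cells 21 and 58. A further 121 control and 159 case cells passed both the VSMC and the fibroblast gate. In the control library these were shallow, with a median of 2306 UMIs. In the case library they were deep, with a median of 8964 beside 5405 in VSMC-gated cells. Whether doublets were among them was not tested. All markers of these 5 gates were higher inside their class than in the cells of the other single-gate classes in both libraries. The gates were set on the sums of these same markers, so this is not an independent check of the classes. A gate is a range and not a cell type: 300 control and 501 case cells lay within 2-fold of the VSMC gate, 130 and 291 of the fibroblast gate, and 28 and 97 of the endothelial gate. The libraries shared 21 barcode sequences.

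Promoter sequences from RefSeq (build GRCr8, not the Rnor_6.0 build of the counts) were found for 4 of the 8 genes. The 250 bases before a transcription start are shown for the 3 genes whose level moved past 1.5-fold in fibroblast-gated cells, Alpl and Bmp4 (lower in the case library) and Runx2 (higher). Capitals mark GC boxes (GGGCGG or CCGCCC, either strand, overlaps counted) in Alpl and Bmp4, and a RUNX core (TGTGGT or ACCACA, either strand) in Runx2.
Alpl, chr5:155289786-155290035, minus strand: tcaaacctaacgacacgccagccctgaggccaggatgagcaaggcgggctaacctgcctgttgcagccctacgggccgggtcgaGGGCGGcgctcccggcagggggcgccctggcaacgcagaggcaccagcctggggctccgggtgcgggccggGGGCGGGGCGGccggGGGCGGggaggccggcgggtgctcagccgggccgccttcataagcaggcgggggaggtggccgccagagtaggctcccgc
Bmp4, chr15:22101934-22102183, minus strand: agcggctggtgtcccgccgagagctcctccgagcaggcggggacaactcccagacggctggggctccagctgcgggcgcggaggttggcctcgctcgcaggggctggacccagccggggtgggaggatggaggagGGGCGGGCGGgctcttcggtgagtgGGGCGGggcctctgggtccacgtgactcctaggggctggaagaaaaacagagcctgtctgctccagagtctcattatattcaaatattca
Runx2, chr9:23664808-23665057, plus strand: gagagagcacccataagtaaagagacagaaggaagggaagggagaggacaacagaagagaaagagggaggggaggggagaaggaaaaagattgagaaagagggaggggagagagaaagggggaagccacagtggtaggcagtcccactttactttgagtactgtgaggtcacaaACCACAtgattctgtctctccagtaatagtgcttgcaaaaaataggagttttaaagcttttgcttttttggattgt
The Alpl window lies just outside the annotated gene, while the Bmp4 and Runx2 windows lie within the spans of their own genes, before a start that is not the outermost one. RefSeq gave a second Runx2 window, at chr9:23742990-23743239, which is not shown. The Alpl window held 4 GC boxes, the Bmp4 window 3, the Runx2 window shown 0 and the second Runx2 window 1. The window of Acan, the fourth gene found and not shown, also held 3. Of all 33469 promoter windows, 30.5% held at least 1. The Runx2 window shown held 1 RUNX core and the second 0, and 14.5% of all windows held at least 1. These are matches of letters and do not show binding.

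In VSMC-gated cells most of the 8 genes differed little between the libraries. Among the 8, the change with the narrowest counting interval was a lower level of Mgp in the injured arteries. Mgp was at 2830.3 CPM in the control and 2132 in the case library, 1.33-fold lower (1.31 to 1.35). The narrow interval reflects its many UMIs, 37272 and 31642, and not a large change. Its log2 change was -0.41, beside a median of -0.14 for all genes. Larger falls were common: 17.5% of all genes were at least 1.5-fold lower, and Mgp was not. All 8 genes had at least 20 UMIs over both libraries in this class, which was the minimum for counting a gene as past 1.5-fold. By this rule 1 of 8 was higher (Runx2, beside 7.95% of all 11738 genes tested) and 1 was lower (Alpl, beside 17.5% of all genes), so the counts were near those of genes in general. Both rested on few UMIs. The median log2 change of the 8 genes was -0.04, and that of all genes -0.14.

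**Figure D1:**
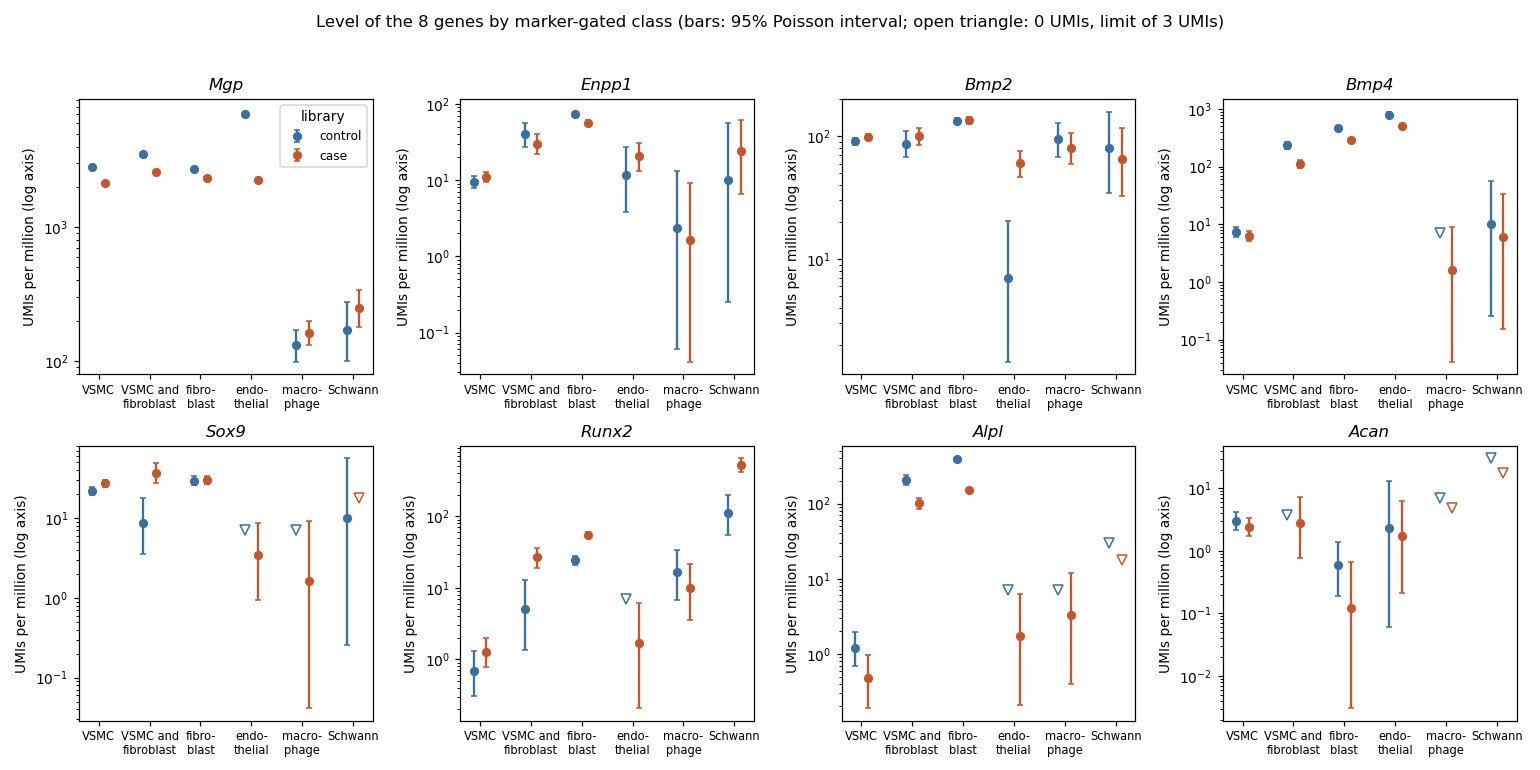
Level of each gene (CPM, log axis) in 6 marker-gated classes of the control (blue) and case (orange) library, with 95% Poisson intervals; open triangles are classes with 0 UMIs, drawn at the limit of 3 UMIs. Mgp stands above 2000 in the VSMC-, fibroblast- and endothelial-gated classes of both libraries and below 300 in macrophage- and Schwann-gated cells, and Alpl stands above 100 only in the fibroblast-gated class and in cells that passed both gates.

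Mgp, the inhibitor of mineral growth, was carried by nearly every mural cell. After each cell was thinned to 2000 UMIs to make depths equal, 96.7% of 1045 VSMC-gated control cells and 92.0% of 2512 case cells had an Mgp UMI, with medians of 5 and 3 UMIs per cell. Before thinning the shares were 97.7% and 97.4%, beside 62.0% of 50 control and 26.4% of 121 case macrophage-gated cells. In macrophage-gated cells, which should lack Mgp, the thinned shares were 20.4% of 49 control and 13.2% of 114 case cells, at median depths of 8615 and 4755 UMIs. Levels there were 131 (98.4 to 170) and 162 (132 to 197) CPM. The libraries filled different VSMC sub-clusters (clusters formed without the 8 genes): 1 held 704 control and 42 case cells, another 21 and 914. Mgp was lower in the case library in all 6 sub-clusters with at least 10 cells of each library, with log2 changes of -0.62 to -0.08 and intervals below 0 in 5 of them.

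By class, the order of Mgp levels differed between the libraries. In the control library endothelial-gated cells were highest at 7047 CPM (6797 to 7304), followed by the cells that passed both gates at 3505 (3377 to 3637), VSMC-gated cells at 2830.3 (2802 to 2859) and fibroblast-gated cells at 2709.6 (2675 to 2745). In the case library these 4 classes lay close together, between 2132 in VSMC-gated and 2573.5 in double-gated cells. The intervals of the case endothelial-gated (2169.7 to 2343) and fibroblast-gated cells (2323 to 2389) overlapped. Schwann- and macrophage-gated cells were lowest in both libraries, and their intervals overlapped each other.

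Enpp1, the source of pyrophosphate, was mainly a fibroblast transcript. It measured 72.6 CPM (67.0 to 78.6) in control and 56.4 (51.5 to 61.8) in case fibroblast-gated cells, and 9.49 (7.90 to 11.3) and 11.0 (9.42 to 12.9) in VSMC-gated cells. The fibroblast level was 1.29-fold lower in the case library (1.14 to 1.45). The VSMC-gated levels had overlapping intervals. In endothelial-gated cells only 5 control and 24 case UMIs were counted, and the log2 change of 0.81 had an interval from -0.60 to 2.56. Macrophage-gated cells held 1 Enpp1 UMI in each library.

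Bmp2 was spread over most classes at like levels. VSMC-gated cells had 90.9 CPM (85.8 to 96.2) in the control and 99.7 (94.7 to 105) in the case library, and fibroblast-gated cells 133 and 135 from 1126 UMIs in each. Macrophage-gated cells stood at 95.01 (67.9 to 129) and 80.2 (59.3 to 106), which overlapped the VSMC-gated values. The control endothelial-gated cells were the exception, with 3 UMIs or 7.04 CPM (1.45 to 20.6). The case endothelial-gated cells had 70 UMIs or 60.1 CPM (46.9 to 76.0), 8.55-fold higher with a counting interval from 2.81 to 42.4. Thinned to 2000 UMIs, a Bmp2 UMI was found in 1 of 55 control and 19 of 237 case endothelial-gated cells, beside 8 of 49 and 17 of 114 macrophage-gated cells. The endothelial-gated shares lay below the macrophage-gated ones in both libraries, with overlapping 95% intervals. The part of free RNA in these low shares was not tested.

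The number of Mgp UMIs for each Bmp2 UMI, a ratio of counts within a class, also differed between classes. It was 31.1 in control and 21.4 in case VSMC-gated cells, 20.4 and 17.5 in fibroblast-gated cells, and 1.38 and 2.02 in macrophage-gated cells. In endothelial-gated cells it was 1002 in the control, from only 3 Bmp2 UMIs, and 37.5 in the case library. Macrophage-gated cells should lack Mgp, so a low ratio there was set in advance. With these 2 classes left aside, the ratio still differed between VSMC- and fibroblast-gated cells of each library.

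Bmp4, the other BMP ligand, had its highest levels in endothelial- and fibroblast-gated cells and a low level in VSMC-gated cells. Endothelial-gated cells had 799.7 CPM (717 to 889) in the control and 501 (461 to 543) in the case library, and fibroblast-gated cells 475 (460.1 to 489.6) and 284 (273 to 296). VSMC-gated cells had 7.29 (5.90 to 8.90) and 6.27 (5.06 to 7.68). Macrophage-gated cells held 0 control UMIs, which allows up to 7.13 CPM, and 1 case UMI. The level in the case library was lower by 1.67-fold (1.59 to 1.76) in fibroblast-gated cells and by 1.60-fold (1.39 to 1.83) in endothelial-gated cells.

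Sox9, the cartilage transcription factor, was found in both VSMC- and fibroblast-gated cells. VSMC-gated cells had 21.6 CPM (19.2 to 24.3) in the control and 27.2 (24.6 to 29.9) in the case library, 1.25-fold higher (1.08 to 1.47) and within the 1.5-fold limit. The difference did not run one way across sub-clusters: 3 of the 6 VSMC sub-clusters with at least 10 cells of each library were higher and 3 lower, with log2 changes of -1.58 to 1.98. Fibroblast-gated cells had 29.3 and 30.1 CPM, with overlapping intervals. That log2 change of 0.04 was 0.38 with thinned cells and turned to -0.31 with fibroblast sub-clusters weighted by their control shares (-0.24 and -0.34 with coarser and finer sub-clusters). Cells that passed both gates had 7 control and 53 case UMIs, or 8.74 and 37.1 CPM, a log2 change of 2.08 (0.94 to 3.47). The case cells were much deeper, with medians of 2306 and 8964 UMIs. Thinned to 2000 UMIs, 0 of 70 control cells had a Sox9 UMI, which allows up to 4.29%. Of 156 case cells 5.77% had one (2.67 to 10.7), so the intervals overlapped. Thinning left out 51 control and 3 case cells. Endothelial- and macrophage-gated cells held 0 Sox9 UMIs in the control library.

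In fibroblast-gated cells 3 of the 8 genes moved past 1.5-fold: Alpl and Bmp4 were lower in the injured arteries and Runx2 was higher. Alpl measured 386 CPM (373 to 399.5) in the control and 154 (146 to 162) in the case library, 2.51-fold lower (2.35 to 2.68). Runx2, the bone transcription factor, measured 24.1 (20.9 to 27.7) and 54.4 (49.5 to 59.6), 2.26-fold higher (1.91 to 2.67). Of the 7 genes with enough UMIs, 1 was higher, beside 9.27% of all 10901 genes tested, and 2 were lower, beside 16.9%, and counts this small do not set the genes apart from these shares. Acan, with 5 control UMIs and 1 case UMI, was the gene not tested. Sox9, Bmp2, Mgp and Enpp1 stayed within 1.5-fold. Among all genes tested in this class, 97.5% had a lower log2 change than Runx2 and 1.7% a lower one than Alpl.

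**Figure D2:**
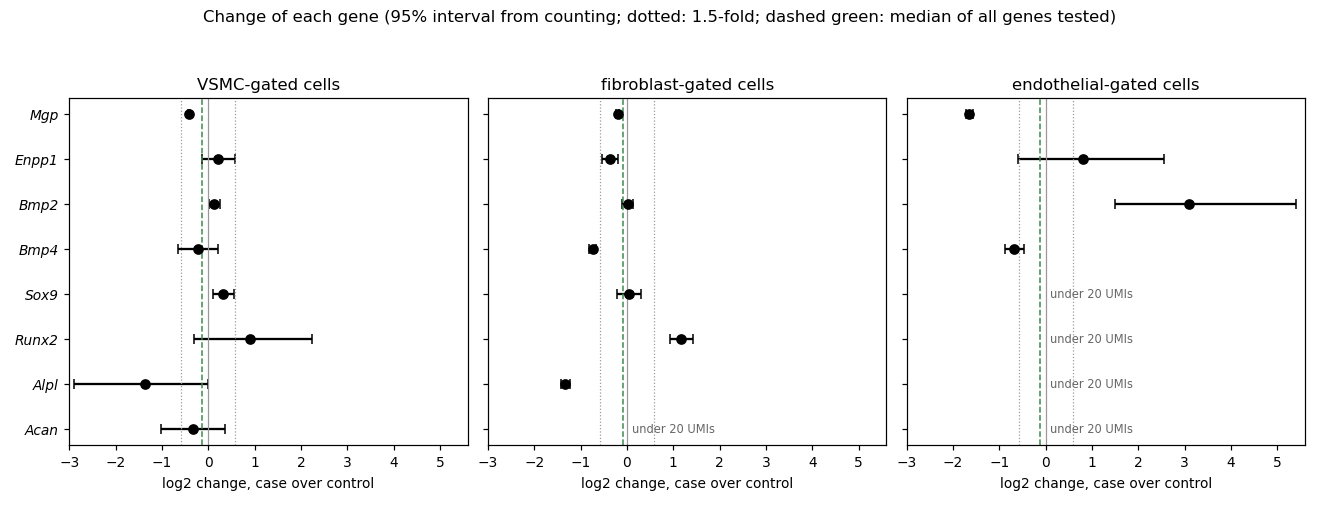
Log2 change of each gene, case over control, in VSMC-, fibroblast- and endothelial-gated cells, with 95% intervals from counting; dotted lines mark 1.5-fold and the dashed line the median of all genes tested in the class. In fibroblast-gated cells Runx2 lies at 1.17 and Alpl at -1.33, and in endothelial-gated cells Mgp lies at -1.64 and Bmp2 at 3.096 with an interval from 1.49 to 5.41.

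The direction of the background depended on the scaling. With total UMIs as the scale, 31.2% of the genes past 1.5-fold in VSMC-gated cells were higher in the case library, and with TMM factors 50.0%. The values were 35.5% and 47.0% in fibroblast-gated cells and 41.3% and 51.7% in endothelial-gated cells. TMM factors raised each log2 change by a constant 0.14, 0.09 and 0.13 in the 3 classes. These shifts were smaller than the changes of Alpl, Bmp4 and Runx2 in fibroblast-gated cells and of Mgp in all 3 classes. The direction of those changes could therefore not turn with this scaling.

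Alpl was a fibroblast transcript in these arteries, and a smaller share of fibroblast-gated cells carried it in the case library. Thinned to 2000 UMIs, 25.8% of 709 control cells (22.6 to 29.2) and 11.4% of 1432 case cells (9.78 to 13.1) had an Alpl UMI; without thinning the shares were 40.0% and 15.9%. Thinning left out 28 control and 74 case cells. None of 49 control macrophage-gated cells had an Alpl UMI after thinning, which allows up to 6.12%, and 1 of 114 case cells did. VSMC-gated cells held 16 control and 7 case UMIs of Alpl in all. Their log2 change of -1.37 had an interval from -2.89 to -0.0039, and its sign turned with doubled gate thresholds and with thinned cells, so no difference was detectable at this depth. Cells that passed both gates lay between these classes, at 206 and 101 CPM.

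Runx2 was present in a small share of fibroblast-gated cells, and that share was larger in the case library once depth was made equal. It was 3.67% of control (2.41 to 5.33) and 9.29% of case cells (7.83 to 10.9) after thinning, but 19.4% and 20.8% before it, at median depths of 11227 and 5121.5 UMIs. The thinned share in macrophage-gated cells was 1 of 49 and 3 of 114. VSMC-gated cells held only 9 control and 19 case UMIs of Runx2, with a log2 change of 0.91 (-0.31 to 2.23). Cells that passed both gates had 4 control and 38 case UMIs, or 4.99 and 26.6 CPM, a log2 change of 2.41 (0.94 to 4.36). After thinning, 0 of 70 control and 10 of 156 case cells that passed both gates had a Runx2 UMI, with overlapping intervals of the shares. Schwann-gated cells were at the highest level of any class, 111 CPM (55.2 to 198) from 11 UMIs in 21 control cells and 523 (419 to 644) from 88 UMIs in 58 case cells. A Runx2 UMI was found in 2 of 18 control and 27 of 41 case Schwann-gated cells after thinning.

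Acan, the cartilage proteoglycan, was near the limit of detection in each gated class as a whole. VSMC-gated cells held 40 control and 36 case UMIs, or 3.04 (2.17 to 4.14) and 2.43 (1.70 to 3.36) CPM, with overlapping intervals. The log2 change of -0.32 was -1.44 with cells thinned to 2000 UMIs, where 9 of 1045 control and 8 of 2512 case cells had an Acan UMI. A VSMC sub-cluster led by Pycard and Nusap1 (202 control and 128 case cells) stood higher, at 18.5 and 27.3 CPM from 11 and 8 UMIs. Cells that passed no gate had 21.5 CPM (6.98 to 50.2) from 5 UMIs in the control library and 8.12 (2.21 to 20.8) from 4 in the case library. All kept cells together held 51 and 47 Acan UMIs. Macrophage- and Schwann-gated cells held none, which in the case macrophage-gated cells allows up to 4.91 CPM.

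The fibroblast-gated cells fell into 7 sub-clusters, formed without the 8 genes, and the genes followed these sub-clusters closely. Alpl was concentrated in a sub-cluster led by Fos, Btg2 and Gdf10 (241 control and 243 case cells) and in one led by Foxs1 and Il6 (224 and 160 cells). Levels there were 609.5 and 439 CPM in the first, and 501 and 336 in the second. A sub-cluster led by Il1rl1, Has2 and Cd55 (103 and 351 cells) had 15.7 and 3.47, and one led by Col8a1, Cilp and Postn (89 and 438 cells) had 50.2 and 25.9. Alpl was 0 in both libraries in a small sub-cluster led by Apod, Myoc and Thbs4 (18 and 27 cells), where Sox9 had its highest level, 177 and 299.7 CPM. The 2 sub-clusters with the most Alpl UMIs in each library, led by Foxs1 and by Fos, held 30.4% and 32.7% of the control but 10.6% and 16.1% of the case fibroblast-gated cells.

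**Figure D3:**
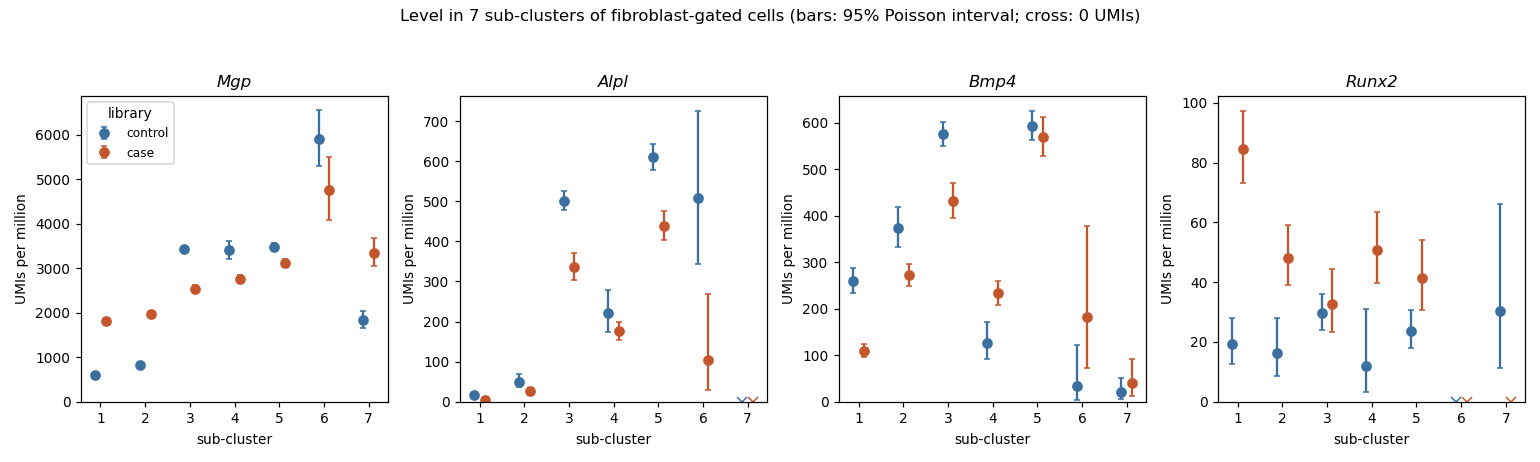
Level of Mgp, Alpl, Bmp4 and Runx2 (CPM) in 7 sub-clusters of fibroblast-gated cells of the control (blue) and case (orange) library, with 95% Poisson intervals and crosses at 0 UMIs. Alpl is highest in sub-clusters 3, 5 and 6 of the control and 3 and 5 of the case library, and lower in the case library in each of the 6 sub-clusters that hold it, while Runx2 is highest in the case cells of sub-cluster 1 at 84.6.

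Both the sub-clusters and the levels within them differed between the libraries. Alpl was lower in the case library in all 6 sub-clusters that held it, with log2 changes of -2.28 to -0.33 and intervals below 0 in 5. With the case sub-clusters weighted by their control shares of UMIs, the case level of Alpl was 265 CPM and the log2 change -0.54, which no longer passed 1.5-fold. With coarser and finer sub-clusters the log2 change was -0.71 and -0.82, which did pass 1.5-fold. Bmp4 had a log2 change of -0.31 under the same weighting, with -0.40 and -0.32 at the other resolutions, and passed 1.5-fold at none of them. Within sub-clusters Bmp4 ran both ways: it measured 259.7 and 109 CPM in the Il1rl1 and Has2 sub-cluster, 593.5 and 569 in the Fos and Gdf10 sub-cluster with an interval of the change that included 0, and 127 and 233 in one led by Spp1 and Itga8 (32 and 265 cells). Which of these differences reflects injury and which the library was not tested.

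Runx2 was higher in the case library in all 5 sub-clusters with UMIs in both, with log2 changes of 0.14 to 2.14 and intervals above 0 in 4. A sub-cluster outside that count went the other way: the Apod and Myoc sub-cluster had 6 control UMIs, or 30.4 CPM, and 0 case UMIs. The level was highest in case cells of the Il1rl1 and Has2 sub-cluster, 84.6 CPM against 19.3 in the control. In the Foxs1 and Il6 sub-cluster it was 32.6 and 29.6, with an interval of the change that included 0. Weighted by control shares, the log2 change was 0.89.

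Mgp, whose fibroblast-gated total differed by only 1.15-fold (1.13 to 1.17), moved in opposite directions between sub-clusters. It was 2.99-fold higher in the case library in the Il1rl1 and Has2 sub-cluster (607 and 1814 CPM) and 2.36-fold higher in the Col8a1 and Postn sub-cluster (834 and 1971). It was lower in 4 sub-clusters, among them the Foxs1 and Il6 sub-cluster with 3424 and 2538. The 2 large sub-clusters with little Alpl were thus those in which control cells had least Mgp.

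Fibroblast-gated cells with an Alpl UMI had higher levels of Mgp and Enpp1 than those without. Among cells thinned to 2000 UMIs, the 183 control cells with an Alpl UMI had 4743 CPM of Mgp and the 526 without had 2202, a ratio of 2.15 (2.02 to 2.29). In the case library the levels were 4304 in 163 cells and 2205 in 1269 cells, a ratio of 1.95 (1.84 to 2.07). Enpp1 was 3.98-fold (2.66 to 6.01) higher in control and 4.26-fold (3.04 to 5.92) higher in case cells with an Alpl UMI. Most of these cells showed no Enpp1 UMI: 26.2% of control and 24.5% of case cells had one, beside 7.79% and 7.64% of cells without Alpl. Bmp4 was 2.07-fold higher (1.73 to 2.47) in case cells with an Alpl UMI, but the control ratio of 1.18 had an interval from 0.997 to 1.40. Runx2 was lower in case cells with an Alpl UMI, at 21.5 against 59.1 CPM, a ratio of 0.363 (0.144 to 0.767) from 7 and 150 UMIs, and the control ratio of 0.805 had an interval from 0.294 to 1.91. Cells are not replicates, so these ratios describe the 2 libraries. They pool all sub-clusters, which differed in both Alpl and Mgp, and ratios within a sub-cluster were not computed.

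**Figure D4:**
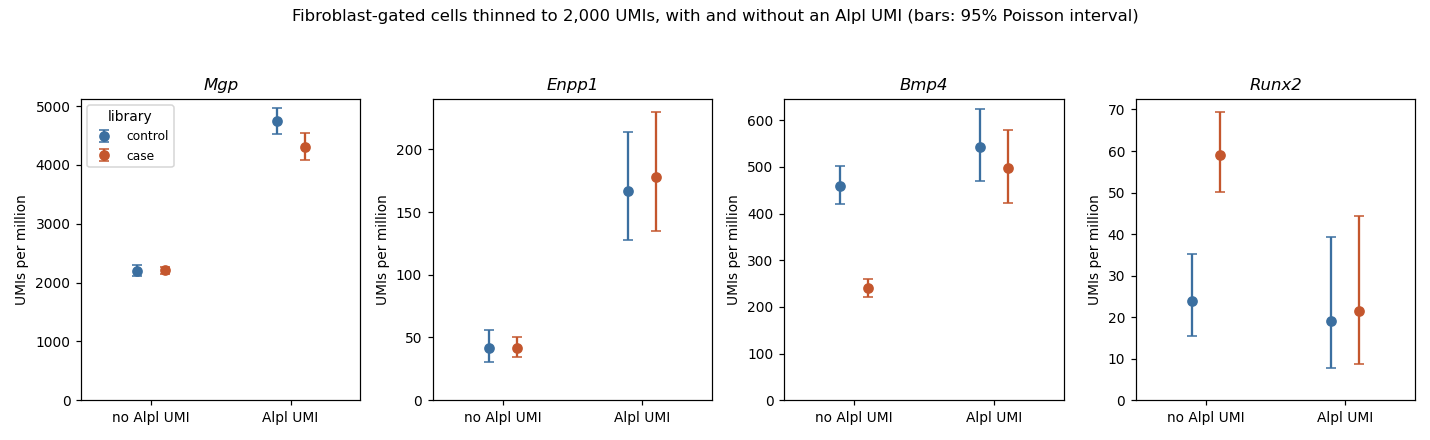
Level of Mgp, Enpp1, Bmp4 and Runx2 (CPM) in fibroblast-gated cells without and with an Alpl UMI, each cell thinned to 2000 UMIs, in the control (blue) and case (orange) library, with 95% Poisson intervals. Mgp lies at 2202 and 2205 without and at 4743 and 4304 with an Alpl UMI, and Runx2 is highest, at 59.1, in case cells without one.

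In endothelial-gated cells Mgp was much lower in the injured arteries and Bmp2 was higher. Mgp measured 7047 CPM in 56 control cells and 2255 in 259 case cells, 3.12-fold lower (2.96 to 3.29). Only 4 of the 8 genes had enough UMIs to be counted: Enpp1 and Bmp2 were higher, beside 20.2% of all 6221 genes tested, and Mgp and Bmp4 were lower, beside 28.7%, which with 4 genes sets nothing apart. Sox9, Runx2 and Alpl had 0 control UMIs and 4, 2 and 2 case UMIs, and Acan had 1 and 2. Thinned to 2000 UMIs, 92.7% of 55 control cells (82.4 to 98.0) and 68.8% of 237 case cells (62.5 to 74.6) had an Mgp UMI, with medians of 6 and 1 per cell. Before thinning the shares were 96.4% and 78.0%.

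The 2 libraries held different endothelial-gated cells. Of the control cells, 26 fell in a sub-cluster led by Spp1, Dkk2 and Gja5 and 22 in one led by Mt1 and Gpd1, with 60 and 56 case cells. Leading genes were taken over both libraries together, and the Spp1 lead of the first sub-cluster came mainly from its control cells. All endothelial-gated cells together held 178 control and 11 case Spp1 UMIs, or 417 and 9.45 CPM. In the first, Mgp measured 10659 CPM in the control and 4978 in the case library, and in the second 3785 and 2177, log2 changes of -1.10 (-1.19 to -1.004) and -0.80 (-0.97 to -0.62). The other 4 sub-clusters held 8 control and 143 case cells in all, and in case cells their Mgp ran from 391 to 2098 CPM. One of these, led by Ccl21, Fabp4 and Plvap, had 73 case cells at 788. With the 2 sub-clusters shared by the libraries weighted by their control shares, Mgp was 7866 in the control and 3840.2 in the case library, a log2 change of -1.03. Bmp4 was 762 and 854 in the Spp1 and Gja5 sub-cluster, with an interval of the change that included 0, and 1074 and 666 in the Mt1 sub-cluster. Its weighted log2 change of -0.19 did not pass 1.5-fold.

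**Figure D5:**
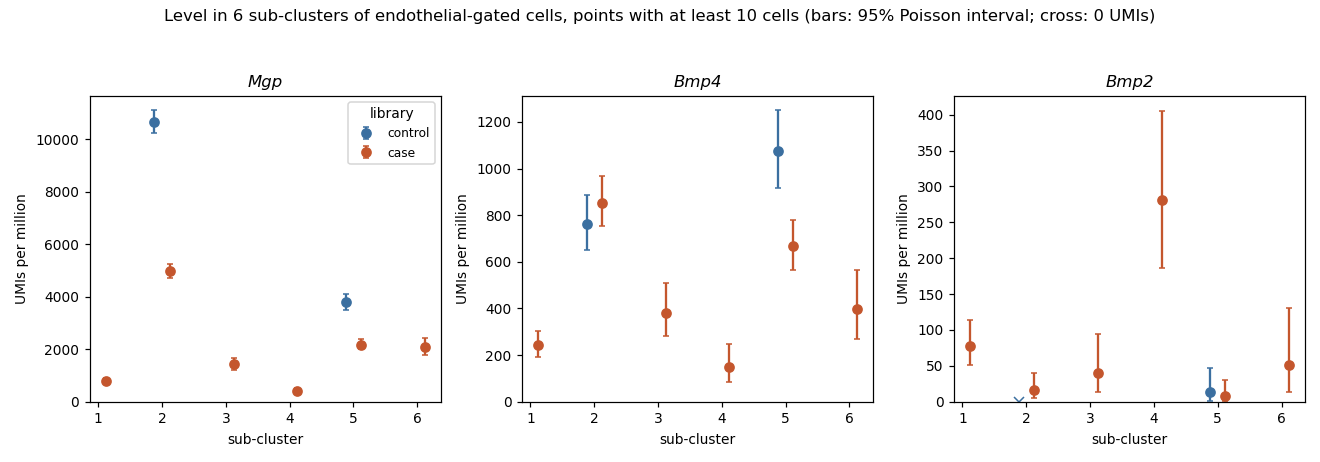
Level of Mgp, Bmp4 and Bmp2 (CPM) in 6 sub-clusters of endothelial-gated cells of the control (blue) and case (orange) library, shown where a library has at least 10 cells, with 95% Poisson intervals and crosses at 0 UMIs. Control points exist only in sub-clusters 2 and 5, where Mgp is lower in the case library, and Bmp2 is highest, at 280.5, in the 14 case cells of sub-cluster 4.

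Of the 70 Bmp2 UMIs of case endothelial-gated cells, 28 came from 14 cells led by Cxcl2, Sdc4 and Cxcl1, a sub-cluster with no control cell, and 26 from the Ccl21 and Plvap sub-cluster with 7 control cells. The sub-clusters that both libraries filled gave 0 and 5 UMIs in one and 2 and 2 in the other. Smooth muscle markers were present at a low level in endothelial-gated cells, with a median of 15.3 marker UMIs per 10000 in the control and 10.2 in the case library, beside 241 and 193 in VSMC-gated cells. Their part in the Mgp levels was not tested.

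Genes that act with these 8 were counted from lists chosen with earlier results of these data known. Of 9 mineralization inhibitors tested in VSMC-gated cells, 1 was higher (beside 7.95% of all genes), 2 lower (beside 17.5%) and 6 within 1.5-fold, with a median log2 change of -0.09. In fibroblast-gated cells 1 of 9 was lower (beside 16.9%) and 8 were within, with a median of -0.20. In endothelial-gated cells 3 of 8, Mgp included in the list, were higher (beside 20.2%) and 5 lower (beside 28.7%), with a median of -0.90 against -0.13 for all genes. The 3 higher genes had only 4 or 5 control UMIs each, while the 4 genes with at least 100 UMIs there (Mgp, Spp1, Gas6 and Vkorc1) were all lower. Vkorc1, which recycles the vitamin K that Mgp needs for its carboxylation, was lower in each of these classes. It measured 316 and 165 CPM in VSMC-gated, 441 and 239 in fibroblast-gated and 213 and 96.2 in endothelial-gated cells. Ggcx, on the same list, had log2 changes of -0.01 in VSMC-gated and 0.01 in fibroblast-gated cells. In endothelial-gated cells its change was -0.78, with an interval from -1.59 to 0.06. Tnfrsf11b (osteoprotegerin) measured 302 and 297 in VSMC-gated cells.

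Among 10 signal transducers and targets of BMP signalling, Id1, Id3, Id4 and Smad4 were past 1.5-fold lower in VSMC-gated cells of the case library (beside 17.5% of all genes), 1 was higher (beside 7.95%) and 5 were within. Smad4, named after its values were seen, had a log2 change of -0.65, which the TMM shift of 0.14 takes back within 1.5-fold. The median log2 change of the list was -0.35 against -0.14 for all genes. Id3, a transcriptional inhibitor induced by BMP ligands, measured 2303 CPM in control and 1339 in case cells, and Id1 and Id4 had log2 changes of -0.80, while Id2 lay within 1.5-fold at -0.42. In fibroblast-gated cells all 8 tested were within 1.5-fold, with a median of -0.27. In endothelial-gated cells 4 of 8 were lower, beside 28.7% of all genes, and 4 within, among them Id4 at -0.25 with an interval from -0.82 to 0.34. Of the BMP receptors, 7 of 8 were within 1.5-fold in VSMC-gated cells and 1 was higher (beside 7.95% of all genes). The BMP antagonist Fstl1 in fibroblast-gated cells measured 581 and 587 with overlapping intervals.

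Other genes of bone and cartilage were found on both sides in fibroblast-gated cells, where 9.27% of all genes were past 1.5-fold higher and 16.9% lower, with a median log2 change of -0.10. Of 12 osteogenic genes tested, Runx2 and Alpl included, 3 were higher, 2 lower and 7 within 1.5-fold, with a median of 0.16. Slc20a1, a phosphate importer, measured 320.3 CPM in control and 732 in case cells. Of 9 chondrogenic genes, Sox9 included, 3 were higher and 4 lower, beside the same shares of all genes, and 2 were within. Prg4 (lubricin) had a log2 change of 2.10 and Cytl1 of -1.09, while Fmod lay at -0.03. In VSMC-gated cells 1 of 12 osteogenic genes was higher (Runx2 itself, with 9 control and 19 case UMIs). Of the others 3 were lower, among them Alpl with 16 and 7 UMIs, and 8 were within 1.5-fold. Of 11 chondrogenic genes, Sox9 and Acan included, 2 were higher, 2 lower and 7 within. Of all genes tested in that class 7.95% were higher and 17.5% lower, and counts this small set neither list apart.

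Over the 12 class and library levels, the genes whose pattern was most like that of each gene were described by Pearson's r of log2 levels among 5035 genes. Meis2 was closest to Mgp (r = 0.98), followed by Ikbip and Gja1. Alpl was followed by LOC259244, Cygb and Cpz with r between 0.99 and 1.00, Bmp4 by Zfp521 (r = 0.98) and Sox9 by Dact1 (r = 0.92). Runx2 was followed by Col11a1 (a fibrillar collagen of cartilage), Nr2f1 and Entpd2, each at r = 0.94. The 12 points share libraries and class gates, so these values are descriptions.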

How the data were processed

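Rat carotid arteries were profiled with 10x Genomics single-cell RNA sequencing, 1 control and 1 case library. The deposited values are raw UMI counts, which the authors produced with Cell Ranger 3.1.0, software built on STAR; the submitters' processing notes name Rnor_6.0 and Seurat. Whether libraries were down-sampled when joined is not stated. The barcode suffix of each library was taken from the barcode numbers (3321 control, 5656 case).

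Barcodes with at least 1000 UMIs and at most 20% mitochondrial UMIs were kept. Gate thresholds (50 marker UMIs per 10000 for VSMC, 30 for fibroblast, 10 for endothelial, macrophage and Schwann) were set after the data were seen. Scrublet called 16 control and 2 case cells, too few to rely on, so doublets were left in. The members and lists were chosen with earlier results of these data known. With 1 library per group no test was run: UMI sums have exact Poisson intervals, ratios exact conditional binomial and shares Clopper-Pearson intervals (95%), and 0 counts allow up to 3 UMIs. A gene with at least 20 UMIs in a class was counted past 1.5-fold. Of each list, genes with at least 100 UMIs could be named, up to 4 with the most UMIs; the counts for the BMP antagonists are not reported here. Sub-clusters were Leiden clusters at resolution 0.5 (0.3 and 0.8 as alternatives added after seeing the data), on 2000 variable genes without the 8 members and 20 principal components. Control shares, where used as weights, were shares of the control UMIs and not of the control cells. Likeness used log2(level + 10) over genes reaching 50 CPM. Alternatives were doubled or halved gates, Leiden classes, other cell filters, removal of high doublet scores or shared barcodes, thinning, a mean over cells and edgeR's TMM factors. On counts simulated with 200 genes changed 2-fold, the 1.5-fold rule recovered 96.0% of them in VSMC-gated cells (11738 genes), 93.5% in fibroblast-gated (10901) and 87.0% in endothelial-gated cells (6221), and also called 4.98%, 6.21% and 17.0% of unchanged genes. These were Poisson draws with no spread between cells, animals or libraries. The rates therefore cover counting error only and are not error rates of the calls in these data. Python 3.11.15, scanpy 1.11.5, scipy 1.17.1, R 4.3.3 and edgeR 4.0.16 were used.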

Additional observations from a re-analysis of the deposited data

How the results depend on the processing

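No paired analysis was possible because each group is 1 library and the labels carry no replicate numbers; for the same reason no replicate could be left out. Over 11 alternatives, 16 of 19 log2 changes kept their direction; Bmp2 in fibroblast-gated and Bmp4 in VSMC-gated cells, both near 0, did not, nor did Alpl in VSMC-gated cells (-1.37), which was 1.27 with doubled gates and 0.73 with thinned cells, from a few UMIs. The cause of the shifts was not tested.

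Mgp in VSMC-gated cells (-0.41) was -0.34 with Leiden classes, -0.35 as a mean over cells and -0.27 with TMM factors. In fibroblast-gated cells Mgp (-0.20) was -0.27 with doubled gates, -0.31 with Leiden classes, -0.11 with TMM factors and -0.092, -0.076 and -0.17 with sub-clusters at control shares (resolution 0.3, 0.5 and 0.8). There, Bmp4 (-0.74) was -0.84 with thinned cells, -0.65 with TMM factors and -0.40, -0.31 and -0.32 at control shares. Alpl (-1.33) was -1.49 with thinned cells, -1.43 as a mean over cells and -0.71, -0.54 and -0.82 at control shares. Runx2 (1.17) was 0.95, 0.89 and 0.86 at control shares. In endothelial-gated cells Mgp (-1.64) was -1.52 and -1.72 with doubled and halved gates, -1.56 with Leiden classes and -1.53 with thinned cells. It was -1.54 as a mean over cells, -1.51 with TMM factors and -1.12, -1.03 and -1.02 at control shares. In the same cells Bmp4 (-0.68) was -1.15 with thinned cells and -0.32, -0.19 and -0.17 at control shares. It passed 1.5-fold in 10 of the 11 alternatives (-0.54 with TMM factors). Bmp2 (3.096) in these cells was 3.12, 1.34 and 1.36 at control shares (resolution 0.3, 0.5 and 0.8). At 0.5 the shared sub-clusters held few Bmp2 UMIs, 0 control and 5 case in one and 2 and 2 in the other.

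Genes past 1.5-fold numbered 933 higher and 2058 lower in VSMC-gated cells, 1011 and 1840 in fibroblast-gated and 1257 and 1785 in endothelial-gated cells. With at least 100 UMIs, 496 were higher in VSMC-gated cells, 499 higher and 1100 lower in fibroblast-gated cells, and 450 higher and 461 lower in endothelial-gated cells. With no minimum above 1 UMI the counts were 3114 and 4287, 3509 and 3813, and 4040 and 4351. Thinning to 2000 and 1000 UMIs took the share of fibroblast-gated cells with an Alpl UMI to 25.8% and 17.1% in the control and 11.4% and 8.83% in the case library, and the share with a Runx2 UMI to 3.67% and 1.22% in the control and 9.29% and 5.64% in the case library.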
